A study of Mus musculus with 4 samples.

Results

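The SLIT ligands and their ROBO receptors were examined in mouse lung bearing 4T1 metastases, as 8 genes picked by symbol out of the 56748 genes with a read count. They were the ligands Slit1, Slit2 and Slit3, the receptors Robo1, Robo2 and Robo4, and Srgap1 and Srgap2, which encode GTPase-activating proteins that bind ROBO receptors. All 8 were picked with results of the same treatment contrast already known, so their own differences are given as a description, no p is given for them, and the calls counted over them support nothing. 4T1 is a mouse triple-negative breast cancer line, and luciferase-marked 4T1 cells had been injected into the tail vein of 7-week-old female BALB/cJ mice. The control group received saline (2 samples, labelled PBS control). The other group received ADC/cmLumiOpto (2 samples), a combination of a CD276 antibody coupled to mertansine (DM1), a tubulin poison, with cmLumiOpto, a luminescence-driven gene therapy aimed at cancer cell mitochondria. cmLumiOpto was carried by antibody-tagged, exosome-associated adeno-associated virus under a cfos promoter and was given with the luciferase substrate ViviRen. The sample labels give the antibody-drug conjugate at 16 mg/kg, where the methods of the study give 8 mg/kg. The labels also write cmLumi-Olap, a name that the methods do not use. Labels and methods thus differ in the name of the treatment as well as in its dose, and it is named here as in the study. No sample of either agent alone was analysed here, so the agents cannot be told apart.

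The labels call the material tumor cells taken from the lung, while the methods describe dissociated lung tissue. Reads of lung cells were abundant in all 4 samples, since the alveolar type 2 gene Sftpc stood between 174 and 4320 CPM (counts per library total, with the total scaled by the TMM factor of the sample). Total counts ran from 15263375 to 19675436, and 3 counts, taken as the floor of detection, corresponded to 0.146 to 0.202 CPM. Over all 15320 genes that passed the filter on low counts, no gene passed the edgeR quasi-likelihood test at an adjusted p of 0.05, where the lowest value reached was 0.116. Before adjustment 3553 genes had a p below 0.05. The edgeR exact test called 606 higher and 564 lower, and DESeq2 575 higher and 757 lower. The samples differed in the RNA of cell type markers as well as in treatment. The summed CPM of 10 alveolar epithelial markers was 1690 and 386 in saline and 6060 and 5170 in ADC/cmLumiOpto, so that saline sample 2 held the least alveolar RNA.

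SLIT proteins are large secreted glycoproteins first known for repelling growing axons from the midline of the nervous system. They bind the immunoglobulin domains of ROBO receptors, and the receptor tail, which has no enzyme activity of its own, recruits srGAPs, NCK adaptors, ABL kinases and ENA/VASP proteins that act on the actin cytoskeleton. In lung and in tumors the same proteins are known in fibroblasts, pericytes and vessels: SLIT2 and SLIT3 are made by stromal and endothelial cells, ROBO1 is found on many cell types, and ROBO4 is a receptor of endothelial cells.

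Slit2 and Slit3 each carry a copy of the microRNA miR-218, whose known targets include Robo1 and Robo2, so its sequence is shown as a feature that links ligands and receptors. In RefSeq (GRCm38.p6) the Slit2 copy, Mir218-1, lies at chr5:48223942-48224051 and the Slit3 copy, Mir218-2, at chr11:35616816-35616925, both on the plus strand like their hosts and neither over a host exon. They stand 74.2% and 84.4% of the way along the host genes. Both give the same 5p form. The capitals mark the seed, bases 2 to 8, which differs between the 5p form and each of the 3p forms.
mmu-miR-218-5p: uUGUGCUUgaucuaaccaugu
mmu-miR-218-1-3p: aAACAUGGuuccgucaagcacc
mmu-miR-218-2-3p: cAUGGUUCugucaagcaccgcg

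The libraries were made from polyadenylated RNA and do not measure mature microRNAs, and both hairpin genes had 0 counts in all 4 samples. The 7 letters that pair with the seed of miR-218-5p, AAGCACA, were searched in the 3′ UTR of the longest coding transcript of each gene (GENCODE M21). They occurred in Slit2, Robo1, Robo2 and Srgap2 and not in Slit1, Slit3, Robo4 or Srgap1, and 13.6% of 20954 coding genes held them. In that order the UTRs had 3492, 1733, 3987 and 4106 bases with a match, and 1212, 365, 1728 and 4407 without. A longer UTR has more places for a match, and the shares over all coding genes were not matched for length. The sites are shown with the match in capitals and named by the UTR base at which the match begins. In Robo1, Srgap2 and the first Robo2 site the match is followed by an A, the longer form found in 3.86% of coding genes.
Slit2 site at UTR base 302: ccaatactagcagAAGCACAtct
Slit2 site at UTR base 2605: ataattattagcaAAGCACAtaa
Robo1 site at UTR base 986: tttttggttttaaAAGCACAatc
Robo2 site at UTR base 461: tttatttggtgatAAGCACAaat
Robo2 site at UTR base 2787: tcacggcagacccAAGCACAgct
Srgap2 site at UTR base 2829: tgggaaaaatccaAAGCACAact

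The 300 bases around the start sites of the ligand genes (250 before and 50 after, RefSeq GRCm38.p6) are shown because Slit2 and Slit3 are the ligand genes with reads above the floor. Capitals mark matches, on either strand, to the GC box, GGGCGG, and to the TATA box, written as TATAAA. The other motifs searched were the CCAAT box, spelled CCAAT, the TEAD motif, spelled GGAATG, the ETS motif, spelled CCGGAA, and the AP-1 motif, spelled TGANTCA, with no match in either window. The Slit2 window lies on the plus strand at chr5:47982905-47983204 and the Slit3 window on the plus strand at chr11:35121206-35121505.
Slit2 promoter: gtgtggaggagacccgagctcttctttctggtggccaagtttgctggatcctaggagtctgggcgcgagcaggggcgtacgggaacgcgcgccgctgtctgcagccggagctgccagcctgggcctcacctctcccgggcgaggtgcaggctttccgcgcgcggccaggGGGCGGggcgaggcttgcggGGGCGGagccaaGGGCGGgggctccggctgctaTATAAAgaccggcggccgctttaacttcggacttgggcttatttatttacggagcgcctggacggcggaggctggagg
Slit3 promoter: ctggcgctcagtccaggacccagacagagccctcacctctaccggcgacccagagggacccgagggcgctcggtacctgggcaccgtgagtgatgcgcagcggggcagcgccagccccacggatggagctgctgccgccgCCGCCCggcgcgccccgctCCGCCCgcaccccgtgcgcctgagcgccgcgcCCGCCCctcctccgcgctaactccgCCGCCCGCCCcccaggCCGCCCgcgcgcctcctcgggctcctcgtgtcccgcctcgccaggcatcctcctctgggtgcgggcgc

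The Slit3 window held 6 GC boxes, a pair of which overlap, and no TATAAA, with a GC content of 78.3%. The Slit2 window held 3 GC boxes and 1 TATAAA, with a GC content of 68.0%. Across 32544 mouse promoter windows of the same length, 35.9% held a GC box, 13.6% held TATAAA and the median GC content was 53.0%. The endothelial receptor gene Robo4 had 50.3% GC, no GC box and 1 CCAAT, which 37.4% of all windows held. These matches describe letters only, and no binding was measured.

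Slit3 showed the widest difference of the family. It encodes the SLIT known for its place in mesenchymal and vascular tissue. The gene (ENSMUSG00000056427) is listed with the counts at chr11:35012051-35599334, plus strand, in positions that match no GRCm38 gene model of the family, while the processing notes of the submitters name mm39. Its reads were 1268 and 1328 in saline and 384 and 584 in ADC/cmLumiOpto, or 79.2 and 89.4 CPM against 21.7 and 28.4 CPM. The groups did not overlap, and the lower saline sample held well above the higher treated one. The mean was 84.3 ± 7.24 CPM (SD, n = 2) in saline and 25.1 ± 4.74 CPM (SD, n = 2) in ADC/cmLumiOpto, a level 3.36-fold higher in saline. The fitted log2 fold change (ADC/cmLumiOpto minus saline) was -1.75 with a standard error of 0.20. Of the 15320 tested genes, 0.62% had a log2 fold change as low or lower, which describes a gene chosen with this contrast known.

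Slit2, the ligand best known from vessels and from axon guidance, was expressed at a lower level. The gene (ENSMUSG00000031558) is listed at chr5:48140480-48465075, plus strand. It had 280 and 251 reads in saline and 203 and 188 in ADC/cmLumiOpto, or 17.5 and 16.9 CPM against 11.5 and 9.15 CPM. The groups did not overlap. The means were 17.2 ± 0.412 CPM and 10.3 ± 1.65 CPM (SD, n = 2 each), and the log2 fold change was -0.74 with a standard error of 0.25. Slit2 has the longest exon length of the family in the table, 25433 bases against 6067 for Slit3. Over all tested genes the log2 fold change ran lower with gene length (Spearman correlation across genes of -0.34, which are not replicates of each other). Once the trend was taken out of each sample, the Slit2 value was -0.30 and the Slit3 value was -1.63.

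Slit1, the most neuronal of the ligands, was at the limit of detection. It had 2 and 2 reads in saline and 0 and 0 in ADC/cmLumiOpto. Every sample was at or under the 3-count floor, so no fold is given, and Slit1 was the 1 member that did not pass the filter on low counts. Neuronal markers were also near 0, with Elavl4 at 0 reads in all samples.

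**Figure D1:**
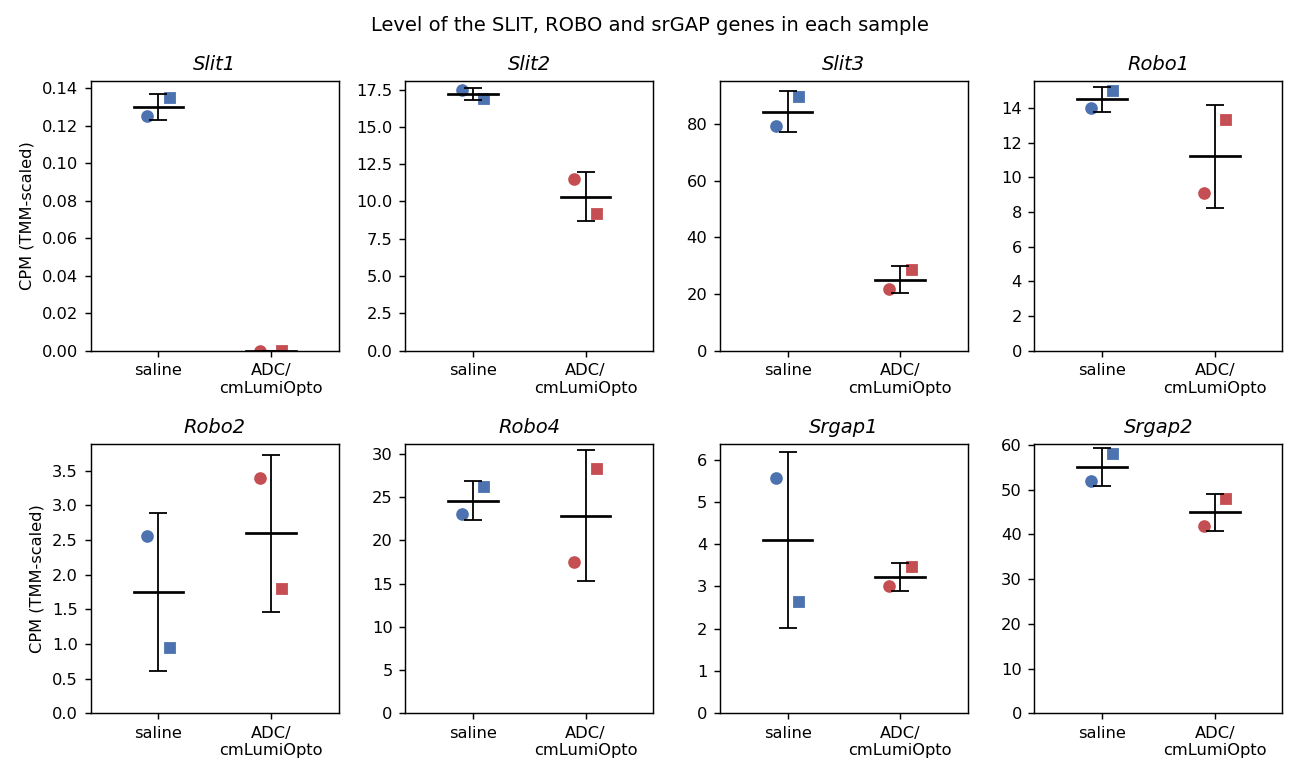
Level of each of the 8 genes in CPM (vertical axis, scaled by TMM, starting at 0, with its own range in each panel) in the saline samples (blue) and the ADC/cmLumiOpto samples (red); circles are sample 1, squares sample 2, the long bar is the mean and the whiskers the SD of 2 samples. Slit3 runs from 79.2 and 89.4 down to 21.7 and 28.4, Slit2, Robo1 and Srgap2 also keep the groups apart, and the Slit1 panel covers only 2 reads or fewer per sample.

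Among the receptors, Robo4 was the most abundant and its groups overlapped. Robo4 (ENSMUSG00000032125, listed at chr9:37313193-37326411, plus strand), known for keeping vessels tight, had 369 and 389 reads in saline and 310 and 579 in ADC/cmLumiOpto. These were 23.0 and 26.2 CPM against 17.5 and 28.2 CPM, so the treated samples held both the lowest and the highest value. The log2 fold change was -0.10 with a standard error of 0.27. It was 0.21 without ADC/cmLumiOpto sample 1 and -0.49 without ADC/cmLumiOpto sample 2, so its direction turned with the treated sample left out.

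Robo1 (ENSMUSG00000022883, chr16:72105194-72842983, plus strand), the broadly expressed receptor, had 224 and 223 reads in saline and 161 and 273 in ADC/cmLumiOpto. In CPM this was 14.0 and 15.0 against 9.11 and 13.3. The groups were apart, but by less than the distance between the 2 treated samples. The log2 fold change was -0.37 with a standard error of 0.28, and it was -0.12 without ADC/cmLumiOpto sample 1 and -0.67 without ADC/cmLumiOpto sample 2. With the length trend removed it was -0.03.

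Robo2 (ENSMUSG00000052516, chr16:73688727-74208713, minus strand), a receptor best known from neurons and the developing kidney, was the 1 tested member with a positive value. It had 41 and 14 reads in saline and 60 and 37 in ADC/cmLumiOpto, or 2.56 and 0.943 CPM against 3.40 and 1.80 CPM. The samples of the groups overlapped, and the log2 fold change of 0.56 was smaller than its standard error of 0.62. Without saline sample 2 it was 0.03, and without saline sample 1 it was 1.45.

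The intracellular partners had small differences. Srgap2 (ENSMUSG00000026425, chr1:131212989-131455090, minus strand), which shapes membrane protrusions through its F-BAR domain, had 833 and 863 reads in saline and 742 and 983 in ADC/cmLumiOpto. In CPM these were 52.0 and 58.1 against 42.0 and 47.9, with no overlap. The log2 fold change was -0.29 with a standard error of 0.17, and 0.01 with the length trend removed. Srgap1 (ENSMUSG00000020121, chr10:121616896-121883220, minus strand), which acts on CDC42 below ROBO, had 89 and 39 reads in saline and 53 and 71 in ADC/cmLumiOpto, and its groups overlapped. Saline sample 1 held the highest and saline sample 2 the lowest CPM, at 5.56 and 2.63. Its log2 fold change of -0.34 had a standard error of 0.47, and was 0.30 without saline sample 1.

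**Figure D2:**
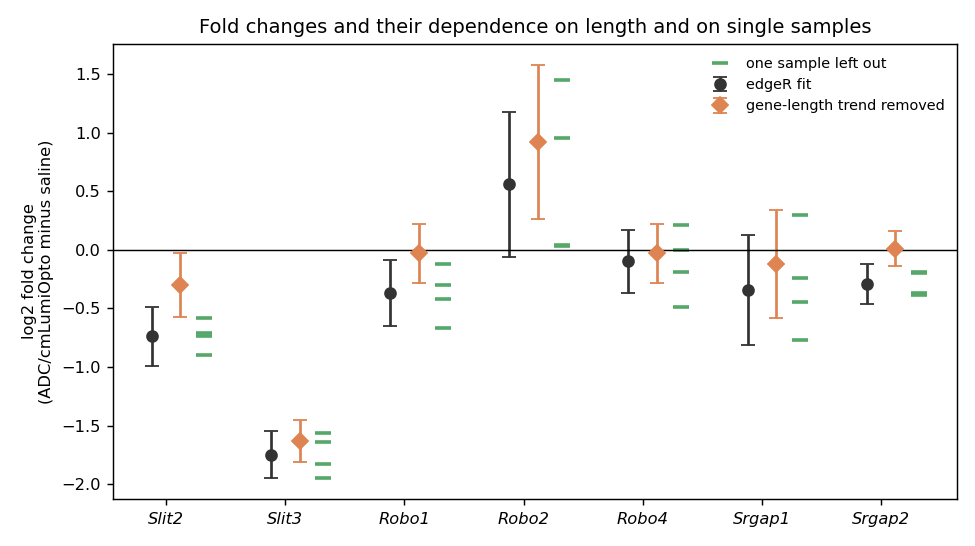
Log2 fold change of the 7 tested members (vertical axis, ADC/cmLumiOpto minus saline) from the edgeR fit (black circles), after removal of the trend with gene length (orange diamonds), each with its standard error, and with each of the 4 samples left out in turn (green dashes). Slit3 stays between -1.95 and -1.56 with any sample left out, whereas the dashes of Robo4 and Srgap1 lie on both sides of 0.

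Over the family, 6 of 7 tested members had a lower and 1 a higher fitted value in ADC/cmLumiOpto, with a median log2 fold change of -0.34 against 0.028 over all tested genes. With the length trend removed the median was -0.03, against 0.02 over all tested genes. The groups did not overlap in 4 of the 7, all lower, where 28.8% of all tested genes were apart in that direction and 28.1% in the other. No member was called by the quasi-likelihood test (0.0% of all tested genes in each direction). Slit3 alone was called lower by the exact test (3.68% of tested genes) and by DESeq2 (5.47% of those with an adjusted p). Since the members were chosen with this contrast known, nothing is read from these counts. With 2 samples a group, an exact permutation test over the samples cannot give a two-sided p below 0.333. The 25 other genes whose listed spans overlap a member had 1 read in all.

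Levels can be compared between genes only per base of exon, and on this scale (TPM, a count divided by the gene length listed with it and scaled to the same total in each sample) Slit3 was the main ligand. Its level was 42.6 ± 3.85 TPM in saline and 11.1 ± 2.95 TPM in ADC/cmLumiOpto (SD, n = 2 each), and Slit2 stood at 2.07 ± 0.0407 and 1.08 ± 0.0889 TPM. In saline the order was Slit3, Robo4 at 14.2 ± 1.35, Srgap2 at 13.4 ± 1.11, Robo1 at 2.69 ± 0.147, Slit2, Srgap1 at 1.37 ± 0.690 and Robo2 at 0.316 ± 0.205 TPM, with Slit1 at the floor. The neighbours Robo4 and Srgap2 lay within their spread, and Slit2 was above Srgap1 by about the SD of the latter. The order rests on the listed lengths and was not computed by the longest coding transcript. For Srgap2 that transcript has 8026 bases against 12560 listed, and for Robo4 it has 4952 against 5302. In ADC/cmLumiOpto, Robo4 at 11.7 ± 4.70 and Srgap2 at 9.60 ± 1.63 TPM were no longer set apart from Slit3. Robo1 followed at 1.83 ± 0.620, then Slit2, Srgap1 at 0.949 ± 0.168 and Robo2 at 0.402 ± 0.146 TPM, and the samples of Slit2 and Srgap1 overlapped.

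Summed SLIT RNA was lower relative to summed ROBO RNA in the treated samples. The summed SLIT level was 42.1 and 47.5 TPM in saline and 10.2 and 14.2 TPM in ADC/cmLumiOpto, without overlap. The summed ROBO level was 16.3 and 18.2 TPM against 10.3 and 17.6 TPM, with overlap. The ratio of the SLIT to the ROBO sum was thus 2.57 and 2.61 in saline and 0.993 and 0.810 in ADC/cmLumiOpto, a mean of 2.59 ± 0.0265 against 0.902 ± 0.129 (SD, n = 2 each). Robo4 gave 81.3% to 85.4% of the ROBO sum in every sample, so by the listed lengths this sum is largely an endothelial receptor. The listed lengths of Robo1 and Robo2 are 16511 and 16983 bases, against longest coding transcripts of 7563 and 8591 bases. The share was not computed by the latter. Slit3 gave most of the SLIT sum, at 39.9 and 45.3 TPM in saline and 9.05 and 13.2 TPM in ADC/cmLumiOpto. The ratio of the sums thus mainly sets Slit3 against Robo4. Within the ligands, the ratio of Slit3 to Slit2 was 19.0 and 22.2 in saline and 7.93 and 13.0 in ADC/cmLumiOpto. Scaled by the longest coding transcript in place of the listed length, the mean ratio was 9.35 and 4.76, so its size depended on the length taken for Slit2 while the 0.509-fold ratio between groups did not.

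**Figure D3:**
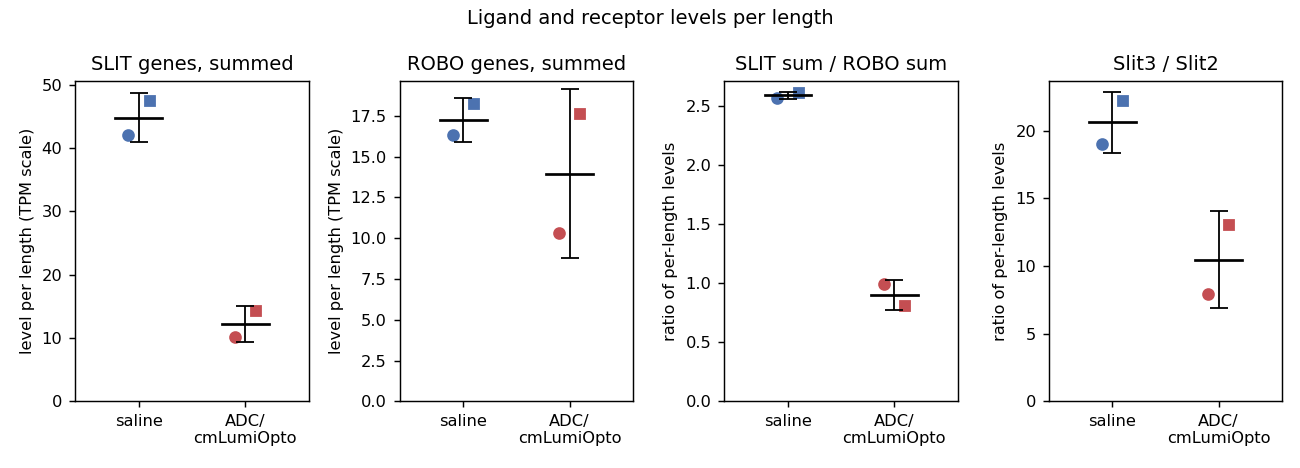
Summed level per length of the SLIT genes and of the ROBO genes (vertical axes, TPM scale), the ratio of these sums, and the ratio of Slit3 to Slit2 per length, in saline (blue) and ADC/cmLumiOpto (red); circles are sample 1, squares sample 2, long bars means and whiskers SDs of 2 samples. The SLIT sum runs from 42.1 and 47.5 to 10.2 and 14.2 while the ROBO sums overlap, which leaves the ratio at 2.57 and 2.61 against 0.993 and 0.810.

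In bulk tissue, fewer cells of a type and less RNA per cell cannot be told apart. The members were therefore set beside marker genes of several cell types. Which cells carry them was not measured. The summed CPM of 12 fibroblast markers was 5190 and 3500 in saline and 2000 and 1750 in ADC/cmLumiOpto, with 8 lower and 4 higher fitted values. The quasi-likelihood test called none of them, the exact test 4 lower and 3 higher, and DESeq2 4 lower and 2 higher. Of its first genes, the collagen gene Col1a1 had a log2 fold change of -2.02, the platelet-derived growth factor receptor gene Pdgfra one of -0.81 and the proteoglycan gene Dcn one of -0.50, with adjusted p of 0.116, 0.116 and 0.203 by the edgeR quasi-likelihood test. The 4 with a higher value, named after their values were seen, were Inmt at 2.58, the lung fibroblast transcription factor gene Tcf21 at 2.21, Pi16 at 2.12 and Dpt at 1.61, with adjusted p of 0.123, 0.123, 0.173 and 0.116 by the same test. The 10 mural and smooth muscle markers summed to 291 and 321 CPM in saline and 223 and 215 CPM in ADC/cmLumiOpto, with 5 lower and 5 higher and a median log2 fold change of -0.05. Here Pdgfrb had a log2 fold change of -0.58, Cspg4 of -0.30 and the smooth muscle myosin gene Myh11 of 0.21. The fibrillar collagen genes Col1a1, Col1a2 and Col3a1 were lower in the treated group, as Slit3 was, while the other stromal markers went both ways. Within each group, however, the sample with more Slit3 had less of each of these collagens. Col1a1 held 2060 and 1360 CPM in saline and 436 and 405 CPM in ADC/cmLumiOpto. The part of the stromal markers in the result was not tested.

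Per 1000 CPM of fibroblast markers, Slit3 was 15.3 and 25.5 CPM in saline and 10.9 and 16.2 CPM in ADC/cmLumiOpto, and the groups overlapped. This sum is ruled by Col1a1, Col1a2 and Col3a1, which gave 67.5% to 90.7% of it in the 4 samples. The 9 other fibroblast markers summed to 485 and 378 CPM in saline and 485 and 569 CPM in ADC/cmLumiOpto. Of these, the 4 named above had a higher fitted value and the rest a lower one. Inmt alone held 64.8 and 12.5 CPM in saline and 194 and 269 CPM in ADC/cmLumiOpto. Pdgfra held 211 and 240 CPM against 118 and 139 CPM. The sum of these 9 thus leans on Inmt in the treated samples, and it was not taken without this gene. Against these 9, Slit3 was 163 and 237 CPM per 1000 in saline and 44.8 and 49.9 in ADC/cmLumiOpto, without overlap. The ratio of ADC/cmLumiOpto to saline was 0.665 on the first scale and 0.237 on the second. Per 1000 CPM of mural markers, Slit3 was 272 and 279 in saline and 97.6 and 132 in ADC/cmLumiOpto, 0.417-fold.

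Slit2 gave opposite answers on the 2 fibroblast scales. Against the whole list it was 3.37 and 4.82 CPM per 1000 in saline and 5.74 and 5.23 in ADC/cmLumiOpto, higher in the treated samples. The list without the 3 collagens leans on Inmt in the treated samples, as given above. Against it, Slit2 was 36.1 and 44.7 in saline and 23.7 and 16.1 in ADC/cmLumiOpto, lower in the treated samples. Its level relative to mural markers was 60.0 and 52.7 against 51.6 and 42.5.

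Endothelial markers stood on the other side. Their summed CPM over 12 genes was 607 and 488 in saline and 679 and 988 in ADC/cmLumiOpto, with 11 of 12 higher. The quasi-likelihood test called none of them, and the exact test and DESeq2 each called 5 higher. The junction genes Cldn5 and Pecam1 had log2 fold changes of 1.37 and 0.52, while Cdh5 was at 0.02. Robo4 was not higher on average, and per 1000 CPM of endothelial markers it was 37.9 and 53.7 in saline against 25.8 and 28.5 in ADC/cmLumiOpto. The groups did not overlap on this scale, whereas they did in CPM. Proliferation markers summed to 1350 and 1330 CPM in saline and 885 and 802 CPM in ADC/cmLumiOpto. Leukocyte markers summed to 2500 and 1720 against 5330 and 3800 CPM, erythroid markers to 1110 and 351 against 1870 and 2070 CPM, mesothelial markers to 144 and 233 against 211 and 152 CPM, and carcinoma epithelial markers to 3000 and 3350 against 2950 and 2870 CPM. The 6 neuronal and Schwann markers summed to 1.12 to 1.27 CPM. Per 1000 CPM of proliferation markers, the Slit2 groups overlapped, at 13.0 and 12.7 in saline against 13.0 and 11.4 in ADC/cmLumiOpto. Slit3 was 58.6 and 67.0 against 24.6 and 35.4 there. Per 1000 CPM of carcinoma epithelial markers, Slit3 was 26.4 and 26.7 against 7.36 and 9.91, and Slit2 was 5.83 and 5.05 against 3.89 and 3.19.

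**Figure D4:**
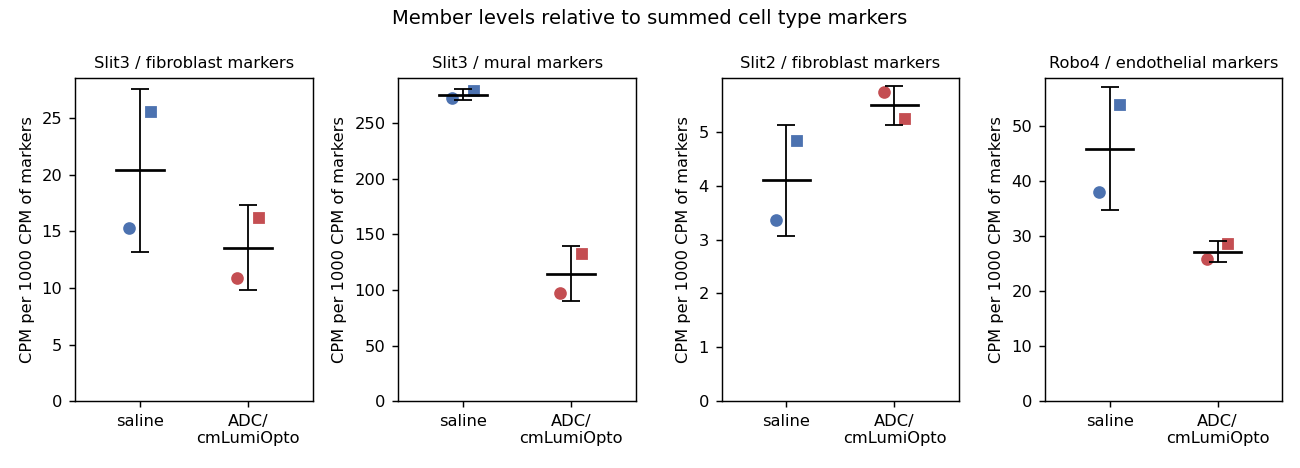
CPM of Slit3, Slit2 and Robo4 per 1000 CPM of summed marker genes (vertical axes, starting at 0) in saline (blue) and ADC/cmLumiOpto (red); circles are sample 1, squares sample 2, long bars means and whiskers SDs of 2 samples. Slit3 overlaps between groups relative to the fibroblast list (15.3 and 25.5 against 10.9 and 16.2) and is apart relative to mural markers, and Robo4 is lower in the treated samples relative to endothelial markers.

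Other genes of SLIT-ROBO signalling were read from a list of 52 genes that were not picked for how they moved. The list was still drawn up with earlier results of these data known. Of these, 48 passed the filter on low counts, and 36 had a lower and 12 a higher fitted value in ADC/cmLumiOpto, against 48% lower over all tested genes. The median log2 fold change was -0.31, and -0.20 with the length trend removed. None was called by the quasi-likelihood test in either direction, and at an unadjusted p under 0.05 there were 14 lower and 2 higher (12.2% and 11.0% of all tested genes). The exact test called 8 lower and 0 higher (3.68% and 3.96% of all tested genes), and DESeq2 called the same 8 lower and 1 higher (5.47% and 4.16%). These 8 were Abl1, Abl2, Clasp1, Git1, Nedd4, Sos1, Srgap3 and Unc5b, of which Clasp1 and Sos1 are named for these calls after their values were seen.

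Of these 8, 6 are adaptors and cytoskeletal effectors, a role that holds 25 of the 48 tested genes. Abl2, a kinase that binds the ROBO tail and actin, had 114 and 165 CPM in saline and 58.4 and 72.4 CPM in ADC/cmLumiOpto, a log2 fold change of -1.09 with an adjusted p of 0.116 by the edgeR quasi-likelihood test. Its relative Abl1 was at -0.83, the srGAP gene Srgap3 at -0.88 and Git1, which links paxillin to PAK kinases, at -0.78, each with the same adjusted p of 0.116. In Srgap3 the CPM was 47.3 and 42.4 in saline and 24.7 and 24.1 in ADC/cmLumiOpto, a wider separation than in the member genes Srgap1 and Srgap2, though the difference between these genes was not tested. Among turnover and sorting genes, the ubiquitin ligase gene Nedd4 was at -0.85 with an adjusted p of 0.116. Prrg4, whose fly relative holds ROBO inside the cell, was at -0.74. The receptor-cutting protease gene Adam10 was at -0.33 and Usp33, which encodes a deubiquitinase of ROBO1, at -0.32. In this order the adjusted p were 0.254, 0.275 and 0.287 by the quasi-likelihood test. With the length trend removed, Abl2 was at -0.82, Abl1 at -0.54, Srgap3 at -0.62 and Git1 at -0.73. On the same scale Nedd4 was at -0.53, Prrg4 at -0.82, Adam10 at -0.27 and Usp33 at -0.07.

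The ligands, receptors and co-receptors of the list had 12 lower and 4 higher fitted values, with a median log2 fold change of -0.34. The other roles had a like mix. It was 19 lower and 6 higher among the adaptors and cytoskeletal effectors, with a median of -0.31. Among the turnover and sorting genes it was 5 lower and 2 higher, with a median of -0.32. The netrin receptor gene Unc5b was at 232 and 198 CPM in saline and 133 and 130 CPM in ADC/cmLumiOpto, a log2 fold change of -0.70 with an adjusted p of 0.123. The syndecan genes Sdc3 and Sdc1, whose heparan sulfate chains bind SLIT, were at -0.57 and -0.41. Cxcr4, the chemokine receptor whose signalling SLIT2 is known to dampen, was at 21.5 and 11.4 CPM in saline and 37.6 and 29.9 CPM in ADC/cmLumiOpto, with a log2 fold change of 1.03 and an adjusted p of 0.146, and DESeq2 called it higher. Leukocytes carry this receptor, and the leukocyte marker sums given above were higher in the same samples, whose part in it was not tested. With the length trend removed, Unc5b was at -0.58, Sdc3 at -0.45, Sdc1 at -0.44 and Cxcr4 at 0.79. The 4 genes under the filter were Robo3 with 3 and 4 reads in saline and 0 and 6 in ADC/cmLumiOpto, Dcc with 0 in all samples, Nell2 with 1 read in all, and Cap2 with 1 to 11 reads.

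**Figure D5:**
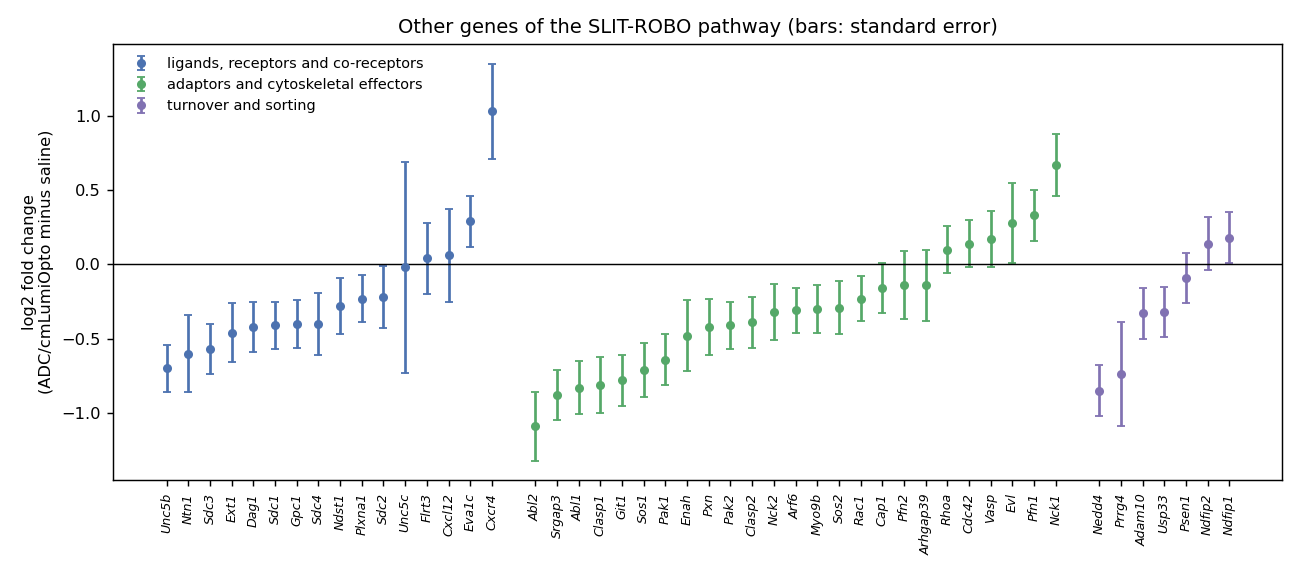
Log2 fold change (vertical axis, ADC/cmLumiOpto minus saline) with its standard error for the 48 tested genes of the wider pathway list, sorted within the ligands, receptors and co-receptors (blue), adaptors and cytoskeletal effectors (green) and turnover and sorting genes (purple). The points run from -1.09 at Abl2 to 1.03 at Cxcr4, and 36 of 48 lie below 0.

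The genes most like each member were found by the root mean square difference of log2 CPM over the 4 samples, each gene centred on its own mean. For Slit3 they were Col5a3, a fibrillar collagen gene, and Gm12248, a predicted gene, at differences of 0.0942 and 0.114. Col5a3 had 491 and 442 reads in saline and 128 and 192 in ADC/cmLumiOpto. It was the 1 gene of 15319 within 0.1 of Slit3, whereas 63 genes lay within 0.1 of Slit2 and 953 within 0.1 of Srgap2. Slit3, at a log2 fold change of -1.75, thus had few genes of like profile, and Srgap2, at -0.29, had many. The members were chosen with this contrast known, so nothing is read from these counts. For Slit2 the nearest were C1qtnf1, which encodes a secreted C1q-like protein, at 0.0211 and Zfp414 at 0.0346.

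For Robo1 the nearest were Ica1 at 0.0122 and Hdac4 at 0.0212, and for Robo4 they were Spryd3 at 0.0250 and Dnm2 at 0.0282. Robo2 was nearest to ENSMUSG00000120062 at 0.0523 and Tnfsf13b at 0.0638. Srgap1 was nearest to Rubcn at 0.0286 and Tbl2 at 0.0432, and Srgap2 to Lgalsl at 0.00571. No member was among the nearest genes of another. The closest members were Robo1 and Srgap2, at 0.135, and Slit3 was 0.572 from its nearest member, Slit2.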

How the data were processed

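RNA of lung with 4T1 metastases was sequenced from 2 saline and 2 ADC/cmLumiOpto samples, while the methods of the study give 4 samples per group. Groups were taken from the sample titles, and the samples were treated as separate mice, which the labels do not state, so the spread may in part be technical. The authors deposited read counts per gene as whole numbers without normalization, aligned with HISAT2. The methods name GRCm38 and the processing notes of the submitters name mm39. The counting program is not given in the sources used here, nor is the strand setting. None of the members has the same start and end in GRCm38, so sequences are given with RefSeq positions of GRCm38.p6 and genes with the positions listed beside the counts. A promoter sequence was found for 7 of the 8 members.

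The 8 members, the gene lists and the tests were chosen with earlier results of these data known. The fit used edgeR 4.0.16 under R 4.3.3 (filterByExpr at its default minima of 10 counts and 15 in total, TMM, glmQLFit and glmQLFTest, Benjamini-Hochberg adjustment over 15320 genes). The alternatives were the edgeR exact test, DESeq2 1.42.0, other scalings and filters, removal of the trend of log2 CPM with gene length by lowess (span 0.3), protein-coding genes alone, the replicate number as a block, and each sample left out in turn. The scale by the longest coding transcript and the fibroblast list without 3 collagens were added after the data were seen. Profiles were compared as log2 CPM with a prior count of 2. Besides the members, the genes named were the 4 with the smallest p in each role of the wider pathway, the first 3 of the marker lists set beside a member, and the 2 nearest profiles of each tested member, apart from 1 gene that is not reported here. Any other gene is said to be named after its values were seen. Of the other marker lists the summed CPM is given. The fits were tested on counts simulated with known fold changes and a smaller spread than in these data. That test does not show how the fits perform at the spread seen here. Floors cover counting error only.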

Additional observations from a re-analysis of the deposited data

How the results depend on the processing

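The values of the 8 genes rest on 2 samples per group, and most members moved with the sample left out. The signs of the Slit2, Slit3, Robo1 and Robo2 values were kept under all 13 alternatives. That of Srgap2 was kept in all but the removal of the length trend, and those of Robo4 and Srgap1 turned with a sample left out, as given above. The median member value of -0.34 was -0.03 with the length trend removed, and -0.49 to -0.19 with a sample left out. Robo2, Slit1 and Srgap1 had at most 89 reads in a sample, which limits their precision.

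Counts of called genes depended on the test. The quasi-likelihood test called 0 genes, the edgeR exact test 606 higher and 564 lower, DESeq2 575 higher and 757 lower, and the quasi-likelihood test without the filter on low counts 1224 higher and 1035 lower. With a sample left out they ran from 0 to 158 higher and from 0 to 48 lower, the highest both without saline replicate 1. In these fits the lone sample of a group is assumed to vary like the other group. In the wider pathway, 8 lower were called by the exact test, 1 higher and 8 lower by DESeq2, and 2 higher and 10 lower without the filter. The cause of these differences was not tested.

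Samples with the same replicate number deviated together with a correlation of 0.0985, and the labels do not tie the numbers to a shared batch, so they share only a number. With the replicate number as a block, 308 genes were called higher and 299 lower, with 1 higher and 3 lower in the wider pathway, and the Cdh5 value was -0.01.

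Among the other named genes, the sign turned with a sample left out for Cdh5 (-0.33 to 0.30), ENSMUSG00000120062 (-0.09 to 1.63), Spryd3 (-0.45 to 0.23, and 0.01 with upper-quartile normalization), Dnm2 (-0.47 to 0.17), Rubcn (-0.74 to 0.26) and Tbl2 (-0.73 to 0.35). The mean ratio of Slit3 to Slit2 was 4.91 in saline and 2.50 in ADC/cmLumiOpto in CPM, and 9.35 and 4.76 by the longest coding transcript, with 20.6 and 10.5 by the listed length. The ratio of ADC/cmLumiOpto to saline was 0.665 for Slit3 over fibroblast markers and 0.237 without the 3 collagens, and 1.34 for Slit2 and 0.492 without them. With a sample left out, Slit2 over fibroblast markers ranged from 1.14 to 1.63, Slit3 over mural markers from 0.355 to 0.480, and Robo4 over endothelial markers from 0.506 to 0.716.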
